A study of Mus musculus with 10 samples.

Results

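The 8 genes for secreted signals described here, given with their Ensembl gene IDs, were followed through mouse melanoma cells exposed to interferon gamma (IFN-γ). They are the cytokine genes Il15 (ENSMUSG00000031712) and Il18 (ENSMUSG00000039217), the IL-18 antagonist gene Il18bp (ENSMUSG00000070427), the growth factor and cytokine genes Csf1 (ENSMUSG00000014599) and Lif (ENSMUSG00000034394), and the transforming growth factor beta (TGF-β) ligand genes Tgfb1 (ENSMUSG00000002603), Tgfb2 (ENSMUSG00000039239) and Tgfb3 (ENSMUSG00000021253). Each was taken by its symbol from a table of 77175 annotated entries, so they are 8 of 77175. All 8 had reads in each of the 10 libraries, and all 8 passed the filter on low counts that left 15526 genes to test.

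RNA-seq of whole cultures was made from B16-F10-OVA and B16-F10, called OVA and WT below. B16-F10 is a pigmented melanoma cell line of mouse origin, and the OVA line is the derivative named for ovalbumin, a model antigen; the labels do not say whether it is 1 clone. The groups were OVA cells held in 50 ng/ml IFN-γ for 24 h (n = 3), untreated OVA cells (n = 2), WT cells held in 50 ng/ml IFN-γ for 24 h (n = 3) and untreated WT cells (n = 2), and the question was whether the lines respond differently. The labels do not say that replicates came from separate cultures, so p-values measure the spread between these libraries, which may be technical.

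Libraries held 17728722 to 19642533 counts. Melanocyte markers summed to between 23064 and 24466 counts scaled to library size (CPM) in all libraries. Markers of other cell types were low. The 8 T cell markers summed to 3.31 to 4.07 CPM in IFN-γ-treated OVA libraries and 1.59 to 1.89 CPM in untreated OVA libraries, and to 3.14 to 3.80 CPM in IFN-γ-treated WT libraries and 1.23 to 1.32 CPM in untreated WT libraries. Most of this was Lck, which rose by 1.26 in OVA cells and 1.46 in WT cells as log2 changes, while Cd3e and Cd2 were at 0 in all libraries. The 9 macrophage and dendritic cell markers summed to at most 5.04 CPM with Ptprc, Itgax and Cd14 at 0, and Cd68 rose by 0.70 in OVA cells and 0.81 in WT cells. The 7 fibroblast markers summed to 4.18 to 5.95 CPM in IFN-γ-treated OVA libraries and 6.43 to 6.78 CPM in untreated OVA libraries, and to 4.70 to 5.23 CPM in IFN-γ-treated WT libraries and 6.32 to 7.66 CPM in untreated WT libraries. Epithelial and endothelial markers reached at most 1.57 and 1.06 CPM, and the part of these markers in the results below was not tested. All 9 genes chosen to check the IFN-γ pathway rose in both lines, among them Irf1 by 5.99 in OVA cells and 6.04 in WT cells, as log2 changes. In RNA of whole cultures, a change in the number of cells that express a gene and a change in its RNA per cell cannot be told apart.

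IL-15 is a cytokine that sustains natural killer and memory CD8 T cells and is handed over on the surface of a cell that also makes its receptor alpha chain. IL-18 is made as a precursor that caspases cut, it raises IFN-γ output from T and natural killer cells, and IL-18BP binds and blocks it. CSF-1 supports macrophages and their precursors, and LIF signals through a receptor that contains gp130. The TGF-β ligands are secreted in latent complexes, are released by integrins or proteases, and restrain T cells.

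The RefSeq promoter table (GRCm38.p6; 250 bases before to 50 bases after the start) held 6 of the 8 genes. The windows of the strongly induced Il18bp, Csf1 and Il18 are shown with those of Tgfb1 and Tgfb2, which moved in opposite directions in OVA cells. They run 5′ to 3′ along the gene: Il18bp chr7:102018183-102018482 on the minus strand, Csf1 chr3:107760420-107760719 on the minus strand, Il18 chr9:50554450-50554749 on the plus strand, Tgfb1 chr7:25686752-25687051 on the plus strand and Tgfb2 chr1:186705940-186706239 on the minus strand. Capitals mark the matches described next.
Il18bp: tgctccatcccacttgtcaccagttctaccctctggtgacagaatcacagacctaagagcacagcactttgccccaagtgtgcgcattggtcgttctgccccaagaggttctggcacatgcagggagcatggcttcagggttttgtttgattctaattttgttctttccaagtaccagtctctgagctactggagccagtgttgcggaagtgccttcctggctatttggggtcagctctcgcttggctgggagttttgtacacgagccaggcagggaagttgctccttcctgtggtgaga
Csf1: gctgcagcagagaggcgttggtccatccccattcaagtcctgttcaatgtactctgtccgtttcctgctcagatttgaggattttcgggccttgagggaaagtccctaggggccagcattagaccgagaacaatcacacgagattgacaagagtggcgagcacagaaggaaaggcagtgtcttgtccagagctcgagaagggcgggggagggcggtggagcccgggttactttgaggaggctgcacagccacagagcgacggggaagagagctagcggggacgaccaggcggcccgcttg
Il18: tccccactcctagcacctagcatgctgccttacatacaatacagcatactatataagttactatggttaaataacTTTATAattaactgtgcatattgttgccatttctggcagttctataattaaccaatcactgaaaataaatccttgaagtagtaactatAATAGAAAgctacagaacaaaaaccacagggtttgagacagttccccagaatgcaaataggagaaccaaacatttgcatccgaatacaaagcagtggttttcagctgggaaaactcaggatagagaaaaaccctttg
Tgfb1: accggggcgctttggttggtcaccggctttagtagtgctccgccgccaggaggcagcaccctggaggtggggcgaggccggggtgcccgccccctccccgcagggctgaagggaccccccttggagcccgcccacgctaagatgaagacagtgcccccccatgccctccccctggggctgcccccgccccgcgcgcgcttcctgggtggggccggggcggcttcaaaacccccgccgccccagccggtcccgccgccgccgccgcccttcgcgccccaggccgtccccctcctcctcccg
Tgfb2: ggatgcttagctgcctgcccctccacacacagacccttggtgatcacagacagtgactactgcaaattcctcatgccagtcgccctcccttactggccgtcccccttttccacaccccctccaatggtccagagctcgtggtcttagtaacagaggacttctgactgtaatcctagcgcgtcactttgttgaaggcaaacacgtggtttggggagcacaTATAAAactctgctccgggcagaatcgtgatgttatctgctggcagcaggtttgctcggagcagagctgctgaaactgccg

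A set of 5 motifs were searched on both strands, and matches of different motifs could overlap. They were the GAS element TTCNNNGAA, named for interferon-gamma activation, held by 8.3% of 32851 promoter windows, the core of the interferon-stimulated response element, GAAA and GAAA with 2 unspecified bases between them (3.44%), the interferon regulatory factor core AANNGAAA (23.9%), the AP-1 site TGANTCA (7.81%) and the TATA element TATAAA (13.6%). The Il18 window held the interferon regulatory factor core as AATAGAAA with its first base at −87. It also held a match to the TATA letters on the other strand, at −175. The Tgfb2 window held TATAAA at −31, and the unprinted Lif window an AP-1 site, TGACTCA, at −228. No motif of the 5 matched in the windows of Il18bp, Csf1 and Tgfb1, which says only that these letters are not in these windows.

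Il18bp had the largest change of the 8 genes in both lines. It had 1086, 1019 and 1062 counts in IFN-γ-treated OVA libraries, against 56 and 60 in untreated OVA libraries. In WT it had 1051, 1144 and 1081 counts in IFN-γ-treated libraries, against 60 and 55 in untreated libraries. Treated libraries were far above untreated ones with no overlap, and the lines were alike. Lack of overlap is only a description here and below, because its share over all tested genes was not computed. The rise was 18.7-fold in OVA cells (log2 4.22, 95% interval 3.99 to 4.46; adjusted p = 1.41e-17) and 17.9-fold in WT cells (log2 4.16, 3.93 to 4.40; adjusted p = 1.84e-17), by edgeR's quasi-likelihood test with Benjamini-Hochberg adjustment over 15526 genes. It was the 242nd largest log2 rise among the tested genes in OVA cells and the 245th in WT cells.

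Il18, the ligand that this antagonist binds, also rose. It had 109, 104 and 104 counts in IFN-γ-treated OVA libraries, against 16 and 18 in untreated OVA libraries. WT libraries gave 68, 79 and 99 counts in IFN-γ-treated libraries, against 8 and 8 in untreated libraries. Again no treated library reached down to an untreated one, and under both conditions the OVA libraries lay above the WT libraries. The rise was 6.35-fold in OVA cells (4.47 to 9.04; adjusted p = 1.65e-08) and 9.56-fold in WT cells (5.96 to 15.4; adjusted p = 1.62e-08).

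Il15 rose by less and from few reads. It had 45, 62 and 50 counts in IFN-γ-treated OVA libraries, against 33 and 21 in untreated OVA libraries. In WT it had 53, 47 and 63 counts in IFN-γ-treated libraries, against 27 and 17 in untreated libraries. Treated and untreated libraries did not overlap in either line. The log2 change was 0.99 in OVA cells (SE 0.27, adjusted p = 0.00488) and 1.22 in WT cells (SE 0.28, adjusted p = 0.00152). The OVA call was lost without untreated OVA replicate 2 (adjusted p = 0.0906).

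Csf1 was the most abundant of the 8 genes in reads under IFN-γ. It stood at 81.7, 80.4 and 83.2 CPM in IFN-γ-treated OVA libraries, against 13.5 and 15.0 CPM in untreated OVA libraries. In WT it stood at 79.6, 81.0 and 76.6 CPM in IFN-γ-treated libraries, against 13.5 and 12.5 CPM in untreated libraries. The libraries fell into a high and a low set by treatment, whichever the line. The rise was 5.74-fold in OVA cells (5.22 to 6.31; adjusted p = 3.71e-16) and 6.08-fold in WT cells (5.51 to 6.71; adjusted p = 3.40e-16).

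Lif was near the limit of what these libraries can show. It had 15, 18 and 13 counts in IFN-γ-treated OVA libraries, against 18 and 9 in untreated OVA libraries, and these overlapped. The WT line gave 11, 9 and 12 counts in IFN-γ-treated libraries, against 6 and 2 in untreated libraries, which did not overlap. Neither change passed the test: the log2 change was 0.22 in OVA cells (interval −0.68 to 1.13; adjusted p = 0.697) and 1.31 in WT cells (0.037 to 2.59; adjusted p = 0.0696). Without untreated WT replicate 1 the WT change was called (adjusted p = 0.0483).

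**Figure D1:**
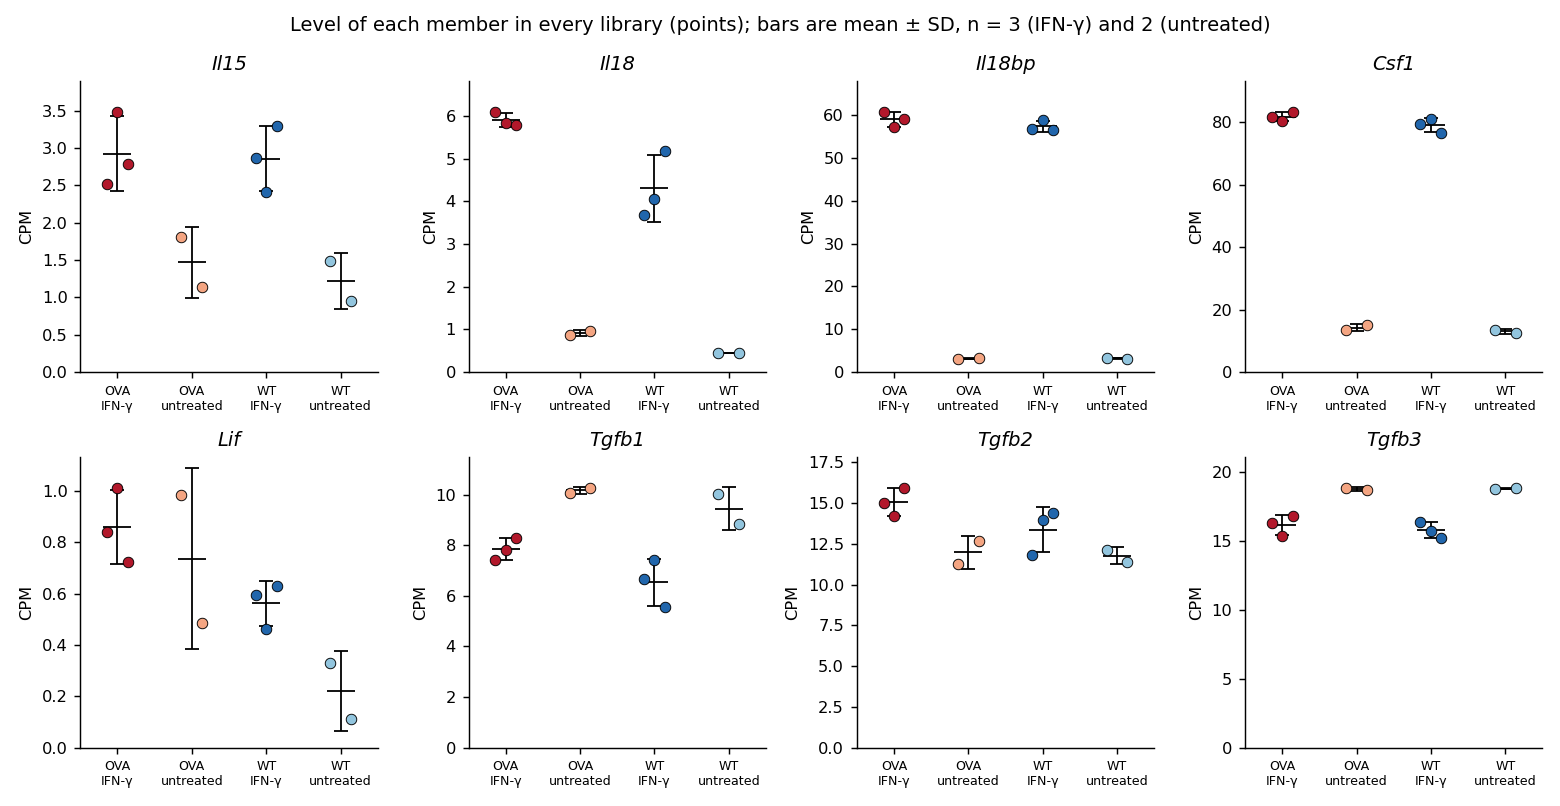
Level of each of the 8 genes in every library, in CPM after TMM scaling, with IFN-γ-treated and untreated groups of each line side by side. Points are libraries and bars are the mean ± SD (n = 3 treated, n = 2 untreated). Il18bp, Csf1, Il18 and Il15 separate by treatment in both lines, Tgfb1 and Tgfb3 are lower under IFN-γ, and Lif stays near 1 CPM or below.

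The TGF-β ligand genes moved little and not together. Tgfb1, the isoform best known from immune cells, fell. It had 133, 139 and 149 counts in IFN-γ-treated OVA libraries, against 184 and 190 in untreated OVA libraries. In WT it had 123, 144 and 106 counts in IFN-γ-treated libraries, against 182 and 158 in untreated libraries. All treated libraries lay below all untreated ones. It fell by 0.37 in OVA cells (SE 0.12, adjusted p = 0.0142) and by 0.53 in WT cells (SE 0.12, adjusted p = 0.00175) on the log2 scale. The OVA call was lost with DESeq2 (adjusted p = 0.0574) and without untreated OVA replicate 2 (0.0765).

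Tgfb3 had the highest level per length of the 3 ligand genes, and it too fell. It had 291, 273 and 301 counts in IFN-γ-treated OVA libraries, against 344 and 345 in untreated OVA libraries. WT libraries gave 303, 305 and 291 counts in IFN-γ-treated libraries, against 340 and 336 in untreated libraries. The groups did not overlap in either line, though the step was small. It fell by 0.22 in OVA cells (SE 0.070, adjusted p = 0.0168) and by 0.25 in WT cells (SE 0.069, adjusted p = 0.00707). With DESeq2 neither call held (adjusted p = 0.110 in OVA cells and 0.0575 in WT cells), and the OVA call was also lost with no filter on low counts (0.0870) and without untreated OVA replicate 1 (0.0726), untreated OVA replicate 2 (0.0687) or IFN-γ-treated OVA replicate 2 (0.0514).

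Tgfb2 went the other way in OVA cells. It had 268, 253 and 286 counts in IFN-γ-treated OVA libraries, against 206 and 235 in untreated OVA libraries, with no overlap. In WT it had 218, 271 and 275 counts in IFN-γ-treated libraries, against 220 and 204 in untreated libraries, and as CPM these overlapped through IFN-γ-treated WT replicate 1. The log2 change was 0.33 in OVA cells (SE 0.098, adjusted p = 0.0108) and 0.18 in WT cells (interval −0.027 to 0.40; adjusted p = 0.149). The OVA call was lost without untreated OVA replicate 1 (0.154) or IFN-γ-treated OVA replicate 3 (0.0501), and a WT call appeared without IFN-γ-treated WT replicate 1 (0.0446).

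Counted together, 5 of the 8 genes rose in OVA cells and 2 fell, where 48.8% of all tested genes were called, 25.9% higher and 22.9% lower. In WT cells 4 rose and 2 fell, where 44.2% of all tested genes were called, 24.5% higher and 19.7% lower. The median log2 change of the 8 genes was 0.66 in OVA cells, beside 0.0018 over all tested genes, and 1.27 in WT cells, beside 0.011. The 8 genes were chosen with earlier results of these data known. Their counts and medians are therefore a description of these 8 genes only.

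**Figure D2:**
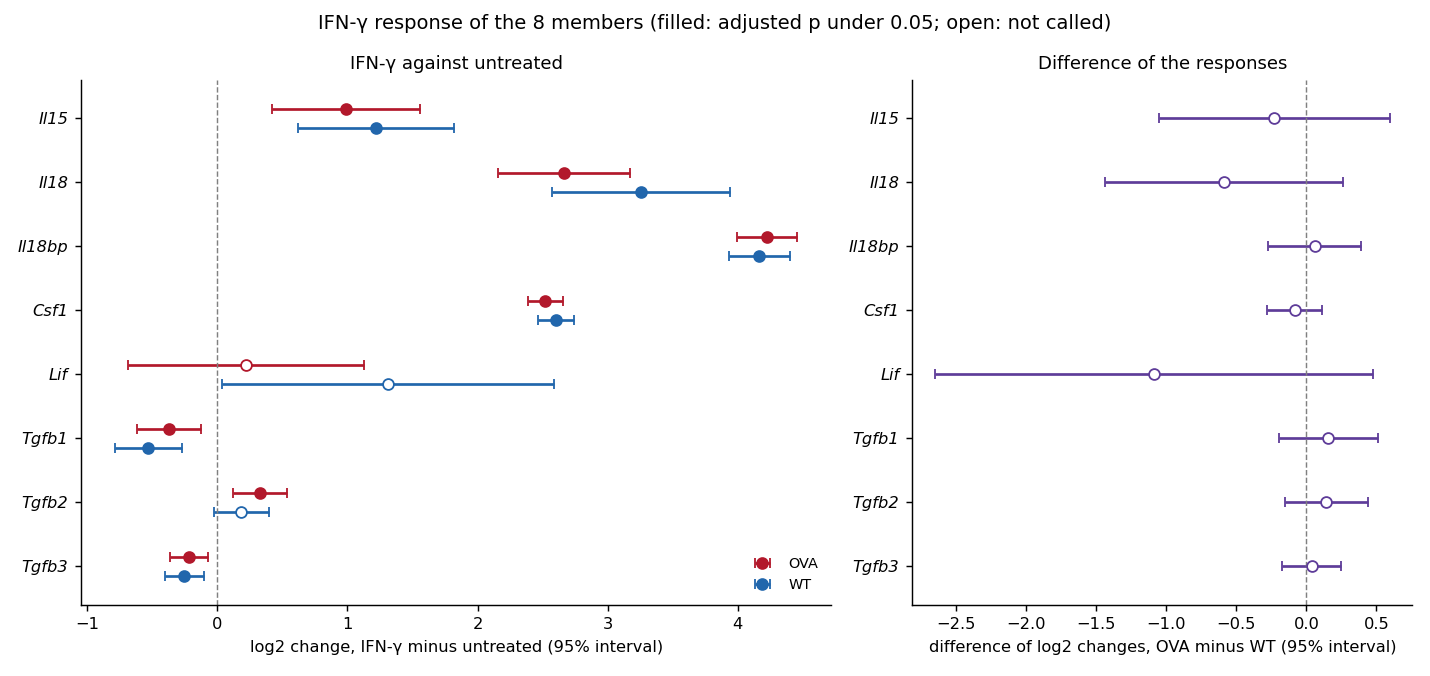
Log2 change under IFN-γ for the 8 genes in OVA cells and WT cells (left) and the OVA response minus the WT response (right), with 95% intervals; filled points passed an adjusted p of 0.05. Il18bp, Csf1 and Il18 stand far to the right of 0 in both lines, and every interval of the difference on the right crosses 0.

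Whether the lines responded differently was tested on the difference itself. None of the 8 genes was called by edgeR, where 0.341% of all tested genes were (0.0773% higher and 0.264% lower). At an unadjusted p under 0.05 the number was also 0, and limma-voom called 0. DESeq2 gave none of the 8 an adjusted p for this comparison. The OVA response minus the WT response was 0.059 for Il18bp (interval −0.27 to 0.39), −0.083 for Csf1 (−0.28 to 0.11) and −0.59 for Il18 (−1.44 to 0.26; adjusted p = 0.680), all as log2 values. The interval for Lif ran between −2.65 and 0.47 and that for Il15 between −1.05 and 0.60. For Tgfb1, Tgfb2 and Tgfb3 the differences were 0.16, 0.14 and 0.037, each with an interval that held 0.

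Set against WT cells at the same treatment, Il18 under IFN-γ was the only call among these 8 genes. Under IFN-γ, Il18 was at 6.09, 5.84 and 5.79 CPM in OVA libraries, against 3.68, 4.06 and 5.18 CPM in WT libraries, without overlap. The log2 change was 0.46 (SE 0.14, adjusted p = 0.0414), 1 called of 8 where 14.4% of all tested genes were called, 6.36% higher and 7.99% lower. That call was lost with DESeq2 (adjusted p = 0.181), with no filter on low counts (0.0612), without any one of the 3 OVA libraries (0.0855 to 0.0994) and without WT replicate 1 (0.162) or 2 (0.137). Under IFN-γ, Tgfb1 and Lif also did not overlap between the lines, but neither was called. The log2 change was 0.26 for Tgfb1 (interval 0.027 to 0.50, adjusted p = 0.129). For Lif it was 0.61 (interval −0.23 to 1.44, adjusted p = 0.336). Under IFN-γ, 2 of the 8 (Il18 and Tgfb1) had an unadjusted p under 0.05. Among untreated cells, Il18 was at 0.875 and 0.972 CPM in OVA libraries, against 0.441 and 0.448 CPM in WT libraries. That log2 change of 1.05 did not pass (interval 0.25 to 1.84, adjusted p = 0.123).

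Untreated Lif showed the widest gap between the lines but rested on 18 and 9 counts in OVA libraries, against 6 and 2 in WT libraries. Its log2 change was 1.70 (interval 0.38 to 3.01; adjusted p = 0.107), and it was 2.64 without untreated WT replicate 1, 2.12 without untreated OVA replicate 2, 1.13 without untreated WT replicate 2 and 1.11 without untreated OVA replicate 1. No untreated comparison of the 8 genes was called by edgeR, DESeq2 (which gave Lif no adjusted p) or limma-voom, where edgeR called 5.53% of all tested genes (2.98% higher and 2.55% lower), and 2 of the 8 (Il18 and Lif) had an unadjusted p under 0.05. Il18bp and Csf1 differed by 0.041 and 0.049 between OVA cells and WT cells under IFN-γ, with intervals of −0.044 to 0.13 and −0.033 to 0.13.

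**Figure D3:**
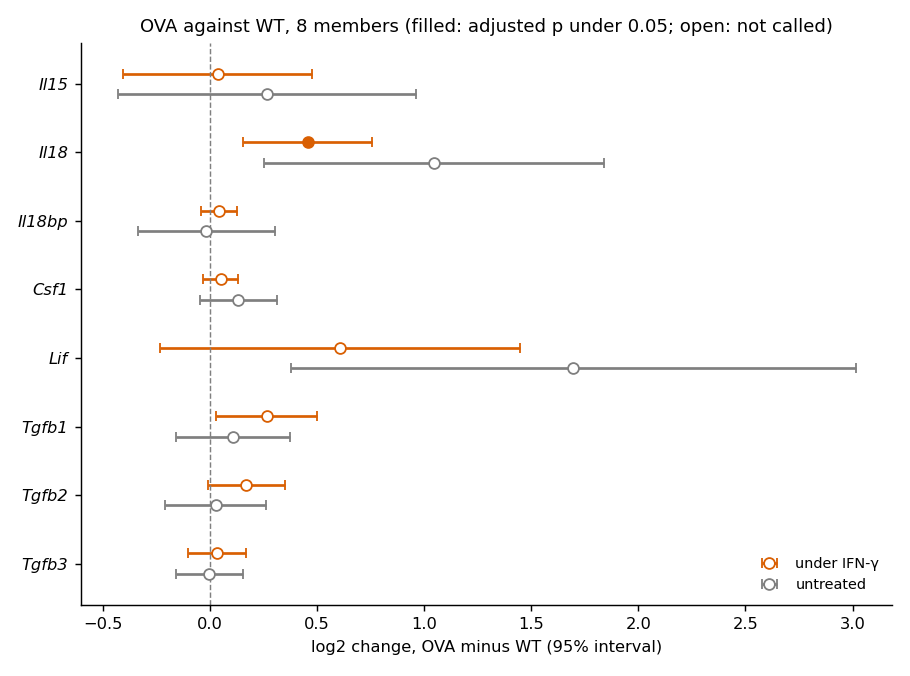
Log2 change of OVA cells over WT cells for the 8 genes, under IFN-γ and untreated, with 95% intervals; the filled point passed an adjusted p of 0.05. Il18 under IFN-γ is the filled point at 0.46, and the widest interval is that of untreated Lif.

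To compare levels between genes, CPM was divided by the length of each gene's merged exons in GENCODE M21. In IFN-γ-treated OVA cells the order was Il18bp (19.5 ± 0.58 CPM per kb, SD, n = 3), Csf1, Il18, Tgfb3, Tgfb2, Tgfb1, Il15 and Lif (0.197 ± 0.033). Only the neighbours Tgfb1 and Il15 overlapped in that order. In untreated OVA cells it was Tgfb3 (5.54 ± 0.038 CPM per kb, n = 2), Csf1, Tgfb2, Tgfb1, Il18bp, Il18, Il15 and Lif, with Tgfb2 and Tgfb1 overlapping. Il18bp thus stood below all 3 TGF-β ligand genes in untreated cells and above them under IFN-γ.

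In IFN-γ-treated WT cells the order was Il18bp (19.0 ± 0.41 CPM per kb, n = 3), Csf1, Tgfb3, Il18, Tgfb2, Tgfb1, Il15 and Lif, with overlap between Tgfb3 and Il18 and between Tgfb1 and Il15. In untreated WT cells it was Tgfb3 (5.55 ± 0.010 CPM per kb, n = 2), Csf1, Tgfb2, Tgfb1, Il18bp, Il15, Il18 and Lif, with overlap between Tgfb2 and Tgfb1 and between Il15 and Il18.

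Read against its ligand, the antagonist gained. The ratio of Il18bp to Il18, per kb, was 3.39, 3.34 and 3.48 in IFN-γ-treated OVA libraries, against 1.19 and 1.14 in untreated OVA libraries. In WT it was 5.27, 4.93 and 3.72 in IFN-γ-treated libraries, against 2.56 and 2.34 in untreated libraries. The ratio was higher in every treated library than in every untreated one of its line. The log2 ratio rose by 1.23 averaged over the lines, with an exact two-sided permutation p of 0.01 stratified by line, the smallest that the 100 assignments allow (adjusted p = 0.025 over 10 tests of ratios, shares and the summed TGF-β level). Within 1 line the smallest exact p is 0.1.

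The ratio was also lower in OVA cells than in WT cells at each treatment, with a mean difference of −0.75 on the log2 scale. This comparison was chosen after the values were seen and is given as a description. Whether the rise of the ratio differed between OVA cells (1.55) and WT cells (0.91) was not tested.

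The summed TGF-β ligand level was 8.92 ± 0.41 CPM per kb in IFN-γ-treated OVA cells (SD, n = 3) and 9.62 ± 0.16 in untreated OVA cells (n = 2). It was 8.26 ± 0.22 in IFN-γ-treated WT cells (n = 3) and 9.45 ± 0.25 in untreated WT cells (n = 2). Treated libraries lay below untreated ones in both lines, by little. Within the sum, Tgfb2 held 29.1% ± 0.33 in IFN-γ-treated OVA cells and 21.5% ± 1.4 in untreated OVA cells. In WT it held 27.9% ± 3.0 in IFN-γ-treated cells and 21.5% ± 0.37 in untreated cells.

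The Tgfb2 share was 7.03 percentage points higher under IFN-γ over the lines (exact two-sided permutation p = 0.01, adjusted p = 0.025). The Tgfb1 share changed by −3.82 points (exact p = 0.01, adjusted p = 0.025). An exact p of 0.01 is the smallest that the 100 assignments allow. The shares of a library add up to a fixed whole, so their changes are not separate results. Tgfb3 remained the largest share, at 53.4% ± 0.67 in IFN-γ-treated OVA cells, 57.6% ± 1.4 in untreated OVA cells, 56.4% ± 2.4 in IFN-γ-treated WT cells and 58.7% ± 1.6 in untreated WT cells. Its change was −3.22 points (exact p = 0.03), which at an adjusted p of 0.05 over the 10 tests did not pass below the threshold. With the summed level left out of the adjustment, over 8 tests, it would have been 0.048, so that call turns on which tests are counted. No share differed between OVA cells and WT cells after adjustment (exact p = 0.0667 for Tgfb1 and for Tgfb3, 0.633 for Tgfb2; adjusted p = 0.0741, 0.0741 and 0.633).

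**Figure D4:**
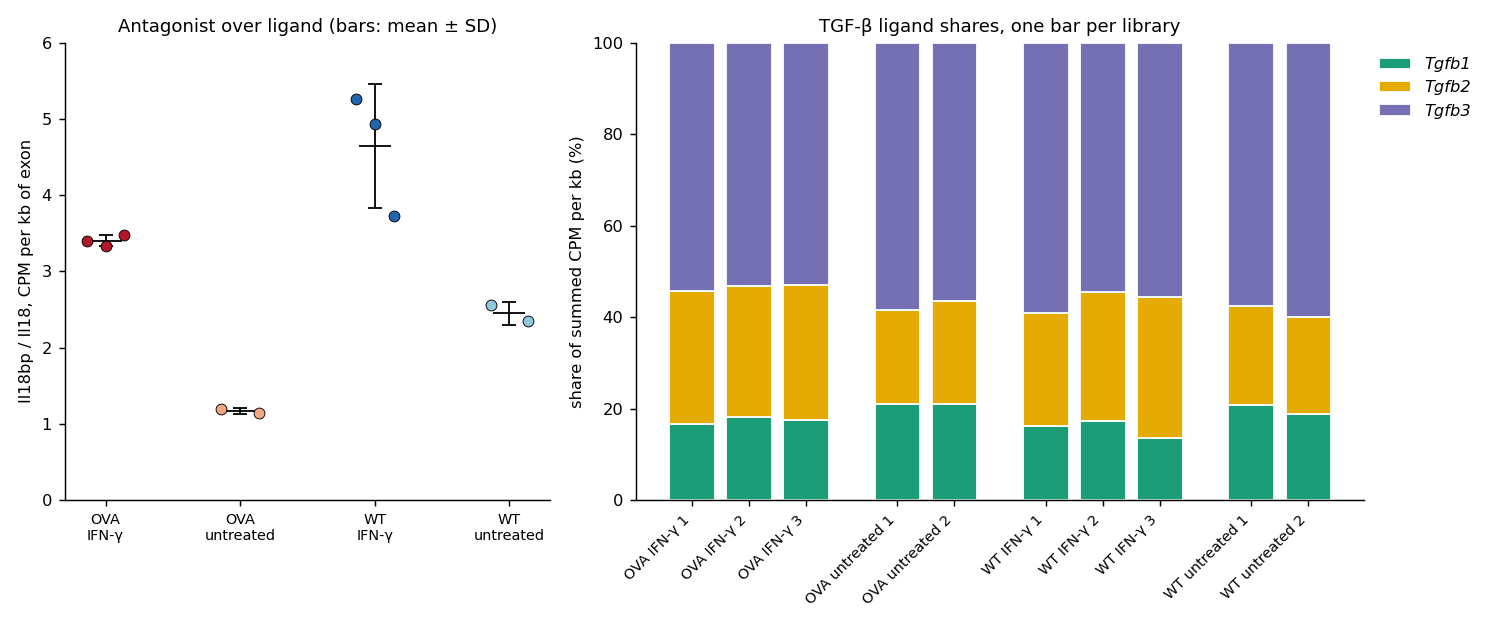
Ratio of Il18bp to Il18 in CPM per kb of exon by group (left; points are libraries, bars are mean ± SD) and the share of each TGF-β ligand gene in their summed CPM per kb in every library (right, percent). The ratio lies between 3.34 and 5.27 in treated libraries and between 1.14 and 2.56 in untreated ones, and the Tgfb2 share is larger in treated libraries.

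Around the ligands, the receptor genes split. Of 13 receptor genes for the 8 signals, 9 could be tested, and 4 rose and 4 fell in each line. Over all tested genes, 25.9% were called higher and 22.9% lower in OVA cells. In WT cells 24.5% were called higher and 19.7% lower, and these shares apply to each list below. Il15ra, which presents IL-15, had 122 counts over the IFN-γ-treated OVA libraries, against 3 over the untreated OVA libraries, a ratio of 27.9 after scaling to library size (interval 9.32 to 137 for counting error only). In WT cells it rose by 3.48 on the log2 scale (SE 0.68), where untreated libraries held only 5 and 1 counts. Il2rg, the common gamma chain of the IL-2 and IL-15 receptors, had 63 counts over treated and 1 over untreated OVA libraries, a ratio of 43.2 (7.48 to 1733), and in WT 54 over treated and 3 over untreated libraries (11.4, interval 3.68 to 56.8).

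Lifr, the LIF receptor gene, rose by 0.94 in OVA cells and 0.86 in WT cells on the log2 scale. The TGF-β coreceptor gene Eng rose by 0.42 in OVA cells and 0.64 in WT cells, and that difference was itself called (−0.22, adjusted p = 0.0433). Tgfbr3, which encodes betaglycan, fell by 0.70 in OVA cells and 0.41 in WT cells, and the receptor gene Acvrl1 fell by 0.52 in OVA cells and 0.54 in WT cells. Receptor genes left untested had few reads: Il18r1 had 0 counts over all 10 libraries, Il18rap 2, Csf1r 5 and Il2rb 27.

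Of 10 genes for cytokine processing and competing ligands, 5 were tested, with 4 up and 1 down in each line. The shares over all tested genes were 25.9% up and 22.9% down in OVA cells, and 24.5% up and 19.7% down in WT cells. Casp4, an inflammatory caspase, rose by 4.71 in OVA cells and 4.30 in WT cells, and the inflammasome adaptor Pycard by 1.53 in OVA cells and 1.49 in WT cells. Furin, a protease that cuts the TGF-β precursor, rose by 0.42 in OVA cells and 0.45 in WT cells. Adam17, a sheddase, fell by 0.20 in OVA cells and 0.12 in WT cells. Casp1, which cuts the IL-18 precursor, had 24 counts over all libraries and was not tested.

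Of 20 genes for latent TGF-β complexes and their activation, 15 were tested: 4 rose and 9 fell in OVA cells, and 4 rose and 8 fell in WT cells. Among all tested genes 25.9% rose and 22.9% fell in OVA cells, and 24.5% rose and 19.7% fell in WT cells. The median log2 change of the 15 was −0.18 in OVA cells, beside 0.0018 over all tested genes. In WT cells it was −0.30, beside 0.011. Thbs1, a matrix protein that can activate latent TGF-β, rose by 3.56 in OVA cells and 4.43 in WT cells, a called difference of −0.87 (adjusted p = 0.00338). Among genes that fell were Nrros, which tethers latent TGF-β, by 0.74 in OVA cells and 0.42 in WT cells, and Itgb5, an integrin chain, by 0.58 in OVA cells and 0.73 in WT cells. The latent binding protein gene Ltbp3 fell by 0.47 in OVA cells and 0.51 in WT cells.

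All 15 genes of the SMAD signal chain and its inhibitors were tested: 2 rose and 3 fell in OVA cells, and 3 rose and 4 fell in WT cells. Among all tested genes 48.8% were called in OVA cells (25.9% higher and 22.9% lower). In WT cells 44.2% were called (24.5% higher and 19.7% lower). The corepressor gene Tgif1 rose by 1.24 in OVA cells and 1.27 in WT cells, while Ski, another corepressor gene, fell by 0.44 in OVA cells and 0.34 in WT cells. Smad3, which carries the TGF-β signal, fell by 0.38 in OVA cells and 0.34 in WT cells. Of 24 genes listed here as induced by TGF-β, 17 were tested: 7 rose and 7 fell in OVA cells, and 7 rose and 4 fell in WT cells. Whether TGF-β induces the listed genes in these cells was not tested. Id3 rose by 1.29 in OVA cells and 0.85 in WT cells, whereas the collagen gene Col4a1 fell by 1.03 in OVA cells and 1.11 in WT cells. Ccn1 fell by 0.67 in OVA cells and had a log2 change of 0.09 in WT cells, a called difference of −0.76 (adjusted p = 7.69e-05).

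**Figure D5:**
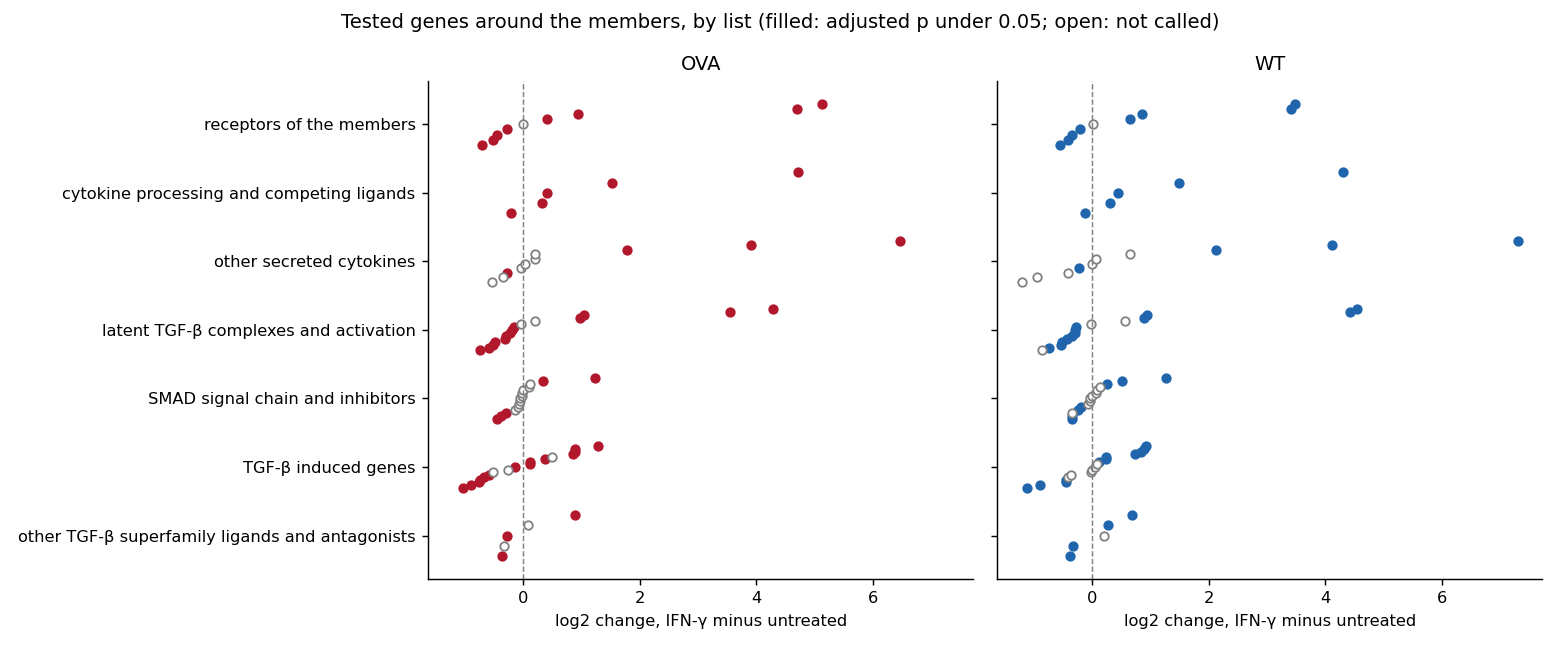
Log2 change under IFN-γ of each tested gene in 7 lists around the 8 genes, in OVA cells (left) and WT cells (right); filled points passed an adjusted p of 0.05. Each of the 7 lists has called points on both sides of 0 in both lines.

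The genes whose pattern was nearest to each member were ranked by the root mean square difference of centred log2 CPM over the 10 libraries, among 10352 genes. Psme2, a proteasome activator subunit, was nearest to Il18bp at 0.0932, and Stat2 next at 0.109. Mlkl, the executor of necroptosis, was nearest to Csf1 at 0.0690, and Ccl5, a chemokine, to Il18 at 0.168. Ahr was nearest to Il15 at 0.203. Zfp385a was nearest to Tgfb1 at 0.0804, Mocs2 to Tgfb2 at 0.0305 and Tmem106b to Tgfb3 at 0.0283, where the genes themselves varied little. Lif stayed below the level needed for this ranking.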

How the data were processed

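RNA-seq counts per gene in 10 libraries were analysed as deposited. Per the submitters' processing notes, the authors used the GRCm39 build with featureCounts 1.6.0 and HISAT2 2.0.5; the sources used here give neither an annotation release nor a strand setting. Without a stated strand, reads where Il18bp, Tgfb2 and Tgfb3 exons overlap other genes cannot be told apart. For any single overlapping gene this was at most 7.60% of the exon length in GENCODE M21. That value is for Tgfb3, which also overlapped another gene over 4.82%.

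Library totals ran between 17728722 and 19642533 counts. All 10 libraries entered 1 fit of 4 group means in edgeR 4.0.16 (R 4.3.3): TMM factors, filterByExpr, the quasi-likelihood F test and Benjamini-Hochberg adjustment over 15526 genes, with a threshold of 0.05. Alternatives used DESeq2 1.42.0, limma-voom 3.58.1, other filters and scalings, a replicate block and each library left out. Ratios and shares used exact permutation of library labels; 10 tests were run and adjusted together. Of these, the comparison of the Il18bp to Il18 ratio between lines and both tests of the summed TGF-β level were not in the design written at the start; these are given as values only.

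Genes named outside the 8 were, per list, those called with the largest changes and at least 1 CPM (at most 4 per list and comparison), and the nearest patterns; Adam17, Nrros, Itgb5, Ltbp3 and the untested genes fall outside that rule and were chosen after their values were seen. The members and lists were chosen with earlier results of these data known. Exon lengths and promoter windows come from GRCm38 annotation, matched by gene ID or symbol.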

Additional observations from a re-analysis of the deposited data

How the results depend on the processing

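The rises of Il18bp, Il18 and Csf1 in both lines kept direction and call under all alternatives run. The small TGF-β changes did not: the number of the 8 genes called lower in OVA cells was 0 with DESeq2, 1 with no filter on low counts and 0 to 2 with each library left out, and in WT cells it was 1 with DESeq2. The number called higher in OVA cells over WT cells under IFN-γ was 0 with DESeq2, 0 with no filter and 0 to 1 with a library left out. Over all tested genes, the difference of responses gave 53 calls, against 103 with DESeq2, 284 with no filter and 21 to 107 with a library left out. OVA cells over WT cells gave 2229 calls under IFN-γ (1454 with DESeq2, 1431 to 2408 with a library left out) and 859 untreated (552 with DESeq2, 350 to 1012). With total counts in place of TMM factors, 60.0% of calls under IFN-γ were higher in OVA cells, against 44.3%, and for the difference of responses 34.1%, against 22.6%. DESeq2 gave no adjusted p for the 8 genes in the difference of responses, nor for Lif between the lines, so it makes no call there. The cause was not tested in any of these.

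With a library left out, the change of the Tgfb3 share ran between −3.88 and −2.64 points. Its unadjusted exact p was 0.05 without any one IFN-γ-treated OVA library, and without IFN-γ-treated WT replicate 2 or 3. Fewer label assignments are possible with a library left out, so the smallest exact p is larger than with all libraries. OVA minus WT ran between 0.977 and 1.93 points for the Tgfb1 share, with an unadjusted exact p of 0.0167 without IFN-γ-treated WT replicate 2 and 0.0333 without untreated WT replicate 1, against 0.0667 with all libraries, and between −0.198 and 1.28 for the Tgfb2 share. The sign also turned for uncalled log2 changes. Lif in OVA cells under IFN-γ ran between −0.196 and 0.80 with a library left out. For Il15 the difference of responses ran between −0.59 and 0.14, and OVA over WT between −0.11 and 0.15 under IFN-γ and between −0.10 and 0.62 untreated. Untreated OVA over WT changes ran between −0.069 and 0.037 for Il18bp, −0.061 and 0.11 for Tgfb2, and −0.0072 and 0.0055 for Tgfb3, which was 0.0011 with no filter.

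Same-numbered replicates deviated together with correlations of −0.0965 to 0.215. Those of treated with untreated OVA libraries were 0.111 and 0.215, and that of IFN-γ-treated OVA and WT replicate 3 was 0.121. Those of treated with untreated WT libraries were −0.0242 and −0.0358. Because only some pairs were above 0.1, the numbers were not taken to pair the libraries. A replicate block raised the calls for the difference of responses to 165 and changed no call on the 8 genes. With 2 untreated libraries per line and 2 to 18 counts per library, depth limits Lif most.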

Other observations

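Of 35 other secreted cytokine genes, 10 had enough reads to test, and 3 rose and 1 fell in each line. Among all tested genes 25.9% rose and 22.9% fell in OVA cells, and 24.5% rose and 19.7% fell in WT cells. Tnfsf10, which encodes the death ligand TRAIL, had a log2 change of 6.46 in OVA cells (SE 0.54), where untreated libraries held 2 and 4 counts. In WT cells it had 808 counts over IFN-γ-treated libraries, against 3 over untreated libraries (ratio 170, interval 57.9 to 826 for counting error only). Flt3l, a growth factor gene for dendritic cells, rose by 3.91 in OVA cells (SE 0.45) and 4.12 in WT cells (SE 0.47). Its untreated libraries held few counts, 5 and 8 in OVA and 11 and 1 in WT. Kitl, the KIT ligand gene, rose by 1.78 in OVA cells and 2.12 in WT cells. Vegfa, an angiogenic factor gene, fell by 0.27 in OVA cells and 0.23 in WT cells. Genes at 0 counts over all 10 libraries included Il1b, Il12a, Il12b, Il27, Ltb and Ifng.

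Of 19 other TGF-β superfamily ligand and antagonist genes, 5 were tested: 1 rose and 2 fell in OVA cells, and 2 rose and 2 fell in WT cells. The shares over all tested genes were 25.9% higher and 22.9% lower in OVA cells, and 24.5% higher and 19.7% lower in WT cells. Fstl3, a binder of activins, rose by 0.89 in OVA cells and 0.69 in WT cells. Gdf11 fell by 0.27 in OVA cells and 0.38 in WT cells.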
